A study of Mus musculus with 9 samples.

Results

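Acta2, Myl9, Tagln, Cnn1, Myh11, Des, Rgs5, Cspg4 and Abcc9 are genes used to recognise mural cells, the smooth muscle cells and pericytes that wrap blood vessels. They were measured here in sorted bone marrow stroma of the mouse. A gene was taken when a row of the deposited table paired with its symbol and no other. All 9 genes had exactly 1 such row, of 19938 genes with a row of their own. The stroma was sorted to hold reticular cells that make interleukin 7, and the genes were followed to see how far these cells share a mural programme.

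Expression was read on 9 Affymetrix Mouse Gene ST 1.0 arrays, whose values are log2 signals. All sorted cells lacked CD45 and lineage (Lin) antigens and carried CD54 and BP1, surface proteins encoded by Icam1 and Enpep. Of these, 1 array held YFP-negative cells (here YFP−; 2300 cells) and 3 arrays held YFP-positive cells (YFP+), all from IL7-Cre Transgenic/Rosa-eYFP hetero mice of the C57Bl/6J strain. A further 3 arrays held cells of the same CD54+BP1+ gate from C57Bl/6J mice without the reporter, called wild type. The last 2 arrays held unsorted total marrow from young adult wild-type C57Bl/6J mice, amplified from 10 ng of RNA. Sorted samples of YFP+ and wild-type cells ranged over 1800 to 10000 cells, and sorted mice were young adults of 6 to 12 weeks. YFP records Il7-driven Cre activity at present or in the past, so it is not a readout of current Il7 transcription, and wild-type cells of the gate were not split by it. No label ties the replicates to separate animals, so the p-values rest on a spread between samples that may be technical.

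Mural cells contract through actin and myosin. Smooth muscle actin (Acta2) and the smooth muscle myosin heavy chain (Myh11) form the filaments, the regulatory light chain Myl9 switches the motor on when it is phosphorylated, and calponin (Cnn1) and transgelin (Tagln) bind actin. Many of these genes are driven by serum response factor with its coactivators of the myocardin family, which act through a DNA element called the CArG box. Pericytes of small vessels carry fewer contractile proteins and are recognised instead by PDGF receptor beta, the proteoglycan NG2 (Cspg4), the G protein signalling regulator Rgs5, the intermediate filament desmin (Des), and the sulphonylurea receptor of the ATP-sensitive potassium channel (Abcc9). Reticular cells of the marrow also sit around sinusoids and arterioles and share PDGF receptors with pericytes, which makes single markers hard to read.

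The CArG box was looked for in the members' promoters. RefSeq sequences (GRCm38.p6) were at hand for 7 of the 9 genes, and the 250 bases before the annotated start were searched. The CArG box is 10 bases long, with CC and GG around inner bases that are all A or T. It reads the same on either strand, so 1 search covers both strands. Boxes with C or G at 1 inner base, here called near matches, were counted as well, and the marked boxes do not overlap. Boxes that depart from the outer CC or GG were not searched for. Myl9, the member with the largest rise against total marrow in YFP−, YFP+ and wild-type cells, has 1 full CArG box and 1 near match. Acta2, lower in YFP+ cells than in total marrow, has 2 near matches and no full box. Abcc9, the other member higher in all sorted groups, has neither kind. The 3 regions are chr2:156775214-156775463 (plus strand), chr19:34255374-34255623 (minus strand) and chr6:142702275-142702524 (minus strand), written 5′ to 3′ with the boxes in capitals:
Myl9: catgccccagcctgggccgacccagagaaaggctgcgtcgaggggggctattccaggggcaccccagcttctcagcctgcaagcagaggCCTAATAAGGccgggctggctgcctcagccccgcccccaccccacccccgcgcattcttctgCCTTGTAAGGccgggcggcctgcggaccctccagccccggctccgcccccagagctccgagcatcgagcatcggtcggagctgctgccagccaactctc
Acta2: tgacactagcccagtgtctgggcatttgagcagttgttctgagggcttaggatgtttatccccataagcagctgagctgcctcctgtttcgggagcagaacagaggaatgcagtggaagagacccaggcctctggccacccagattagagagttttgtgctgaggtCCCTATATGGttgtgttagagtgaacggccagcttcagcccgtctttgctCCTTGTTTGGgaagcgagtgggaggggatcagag
Abcc9: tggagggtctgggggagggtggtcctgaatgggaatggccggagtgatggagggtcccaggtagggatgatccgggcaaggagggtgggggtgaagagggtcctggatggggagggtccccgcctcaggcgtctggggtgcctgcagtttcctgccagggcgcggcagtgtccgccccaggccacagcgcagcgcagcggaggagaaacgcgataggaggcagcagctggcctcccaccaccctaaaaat

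In Myl9 the full box CCTAATAAGG starts 161 bases before the start and the near match CCTTGTAAGG starts 99 bases before it. In Acta2 the near matches CCCTATATGG and CCTTGTTTGG start 84 and 34 bases before the start. The promoters of Cnn1, Des, Rgs5 and Cspg4 held no full box and no near match of this kind in this window. Among all 32851 promoters of the table, 1.47% held a full box and 8.59% held a full box or a near match. These are matches of letters in a short window, and no binding was measured.

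The identity of the sorted cells was checked on marker lists. All 6 reticular stroma markers (Lepr, Cxcl12, Kitl, Adipoq, Ebf3 and Foxc1) were called higher than in total marrow in YFP−, YFP+ and wild-type cells alike. All 6 leucocyte markers were called lower. The 8 endothelial markers, which would travel with vessel fragments, lay below the median of all deposited values (4.43) on every sorted array. Their summed log2 signal was 27.9 to 29.2 in YFP+ arrays and 27.3 to 28.0 in wild-type arrays, against 32.6 to 33.1 in total marrow. In total marrow 6 of the 8 also lay below that median, so a fall could hardly be seen for them. The gap in the sum came mostly from Pecam1 and Erg, with means of 5.89 and 5.82 in total marrow against 3.68 and 3.77 in YFP+ cells. Over the 8 markers the median change was -0.03 log2 units in YFP+ and -0.21 in wild-type cells. Of the 6 megakaryocyte and platelet markers measured, 4 were called lower in YFP+ and in wild-type cells and none higher, with Pf4, the platelet chemokine, at 3.63 to 4.99 in YFP+ and 3.71 to 4.13 in wild-type arrays, against 8.95 to 9.05 in total marrow. By limma, 0 of 8 skeletal and cardiac muscle markers were called against total marrow in YFP+ or wild-type cells, where 0 and 1 had an unadjusted p under 0.05; on the YFP− array 1 was called higher (Tnnt3). Of 5 Schwann cell markers, 1 (S100b) was called higher and 1 (Mbp) lower in each sorted group. The YFP− array had a lower distribution as deposited (median 3.46, against 4.51 to 4.60 on the other 8 arrays), so its values and tests are given after cyclic loess normalization of all 9 arrays. In bulk samples such as these, fewer cells of a type cannot be told apart from less RNA per cell.

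Against total marrow, the 9 genes did not move as a block. Myl9 and Abcc9 were called higher in all 3 sorted groups. Des was also called higher in YFP+ cells, Tagln in wild-type cells and Rgs5 in YFP− cells. Acta2, the gene that most often defines smooth muscle, was called lower in YFP+ cells. Cnn1, Myh11 and Cspg4 were called in none of the 6 comparisons between groups.

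**Figure D1:**
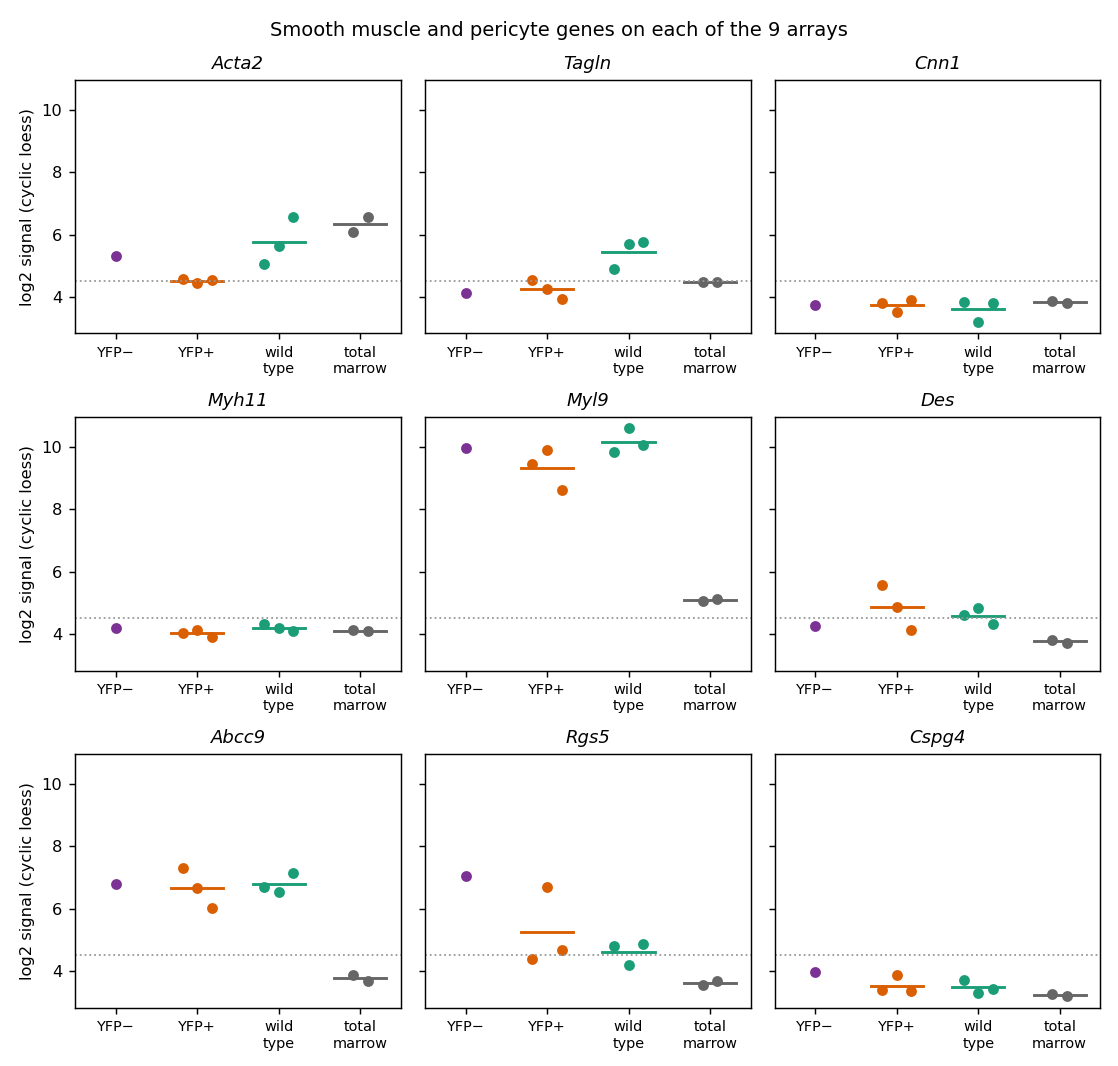
Log2 signal after cyclic loess of the 9 genes on each of the 9 arrays, in the order YFP−, YFP+, wild type and total marrow; a point is 1 array, a bar the mean of a group with over 1 array, and the dotted line the median of all values (4.53). Myl9 and Abcc9 stand above total marrow on all 7 sorted arrays, while Cnn1, Myh11 and Cspg4 stay under the dotted line on every array.

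By limma's moderated test with Benjamini-Hochberg adjustment over 21789 rows, 4 of the 9 genes were called in YFP+ cells against total marrow at an adjusted p under 0.05, 3 higher and 1 lower, where 29.5% of all rows were called (11% higher, 18.5% lower). In wild-type cells 3 of 9 were called, all higher, where 24.3% of all rows were called (10.4% higher, 13.9% lower). The YFP− array gave 3 of 9, all higher, where 26.2% of all rows were called (13% higher, 13.2% lower). The median change over the 9 genes was 0.44 log2 units in YFP+ and 0.85 in wild-type cells as deposited, against 0.09 and 0.00 over all rows. For YFP− cells it was 0.50 after cyclic loess, against -0.00 over all rows. On that same scale the medians of the 9 genes were 0.30 in YFP+ and 0.82 in wild-type cells. Arrays of the sorted group and of total marrow did not overlap for 6 members in YFP+ cells, where 59.8% of all rows did not, and for 6 members in wild-type cells, where 53.6% did not. These 3 comparisons share the same 2 total marrow arrays, so they are read side by side and not as repeats of each other.

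Of the 9 genes, Myl9 had the largest change against total marrow in each sorted group. Its log2 signal was 9.59, 9.94 and 8.48 in YFP+ arrays and 10.08, 11.00 and 10.29 in wild-type arrays, against 5.67 and 5.64 in total marrow. Every YFP+ and wild-type array stood well above both marrow arrays, and YFP+ and wild-type arrays did not overlap as deposited. The change against total marrow was 3.69 ± 0.44 log2 units (SE; 12.9-fold; adjusted p = 0.000497) in YFP+ cells. In wild-type cells it was 4.81 ± 0.44 log2 units (SE; adjusted p = 0.000109), and it was 4.86 ± 0.49 (SE; adjusted p = 0.000331) for the YFP− array, which read 9.95 after cyclic loess. All 3 calls held under every alternative tried. Since total marrow stood above the median of all values for this gene, the size of the change does not rest on a dim control.

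Acta2 went the other way. Its signal was 4.63, 4.52 and 4.54 in YFP+ arrays and 5.17, 5.83 and 6.68 in wild-type arrays, against 6.26 and 6.69 in total marrow. The YFP+ arrays lay close together, just above the median of all values and below every wild-type and total marrow array. The wild-type arrays spread over 1.5 log2 units, and the highest of them reached the level of total marrow. In YFP+ cells Acta2 fell by 1.91 log2 units (SE 0.38; 3.77-fold lower; adjusted p = 0.0076) relative to total marrow, and without total marrow replicate 2 the adjusted p was 0.0667. Wild-type cells differed from total marrow by -0.58 ± 0.38 log2 units (SE; adjusted p = 0.382), but by -0.97 (adjusted p = 0.0358) without wild-type replicate 3. The YFP− array read 5.33 after cyclic loess, between the YFP+ mean of 4.53 and the total marrow mean of 6.33, and its change of -1.0 ± 0.53 log2 units (SE) against total marrow was not called (adjusted p = 0.221).

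Tagln, an actin-binding protein of smooth muscle and of migrating mesenchymal cells, was called higher in wild-type cells. Signals were 4.56, 4.32 and 4.02 in YFP+ arrays and 4.95, 5.75 and 5.72 in wild-type arrays, against 4.49 and 4.47 in total marrow. The wild-type arrays all stood above total marrow, and the YFP+ arrays lay around it. The wild-type change was 1.0 ± 0.27 log2 units (SE; adjusted p = 0.0303), and the YFP+ change was -0.18 ± 0.27 (SE; adjusted p = 0.630). The wild-type call was lost in 7 of 18 alternatives, among them leaving out wild-type replicate 2 or 3 or either total marrow array (adjusted p up to 0.147). After cyclic loess the YFP− array read 4.14, and it differed from total marrow by -0.35 ± 0.38 log2 units (SE; adjusted p = 0.559).

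The late contractile markers gave no resolvable signal. Cnn1 ranged over 3.60 to 4.10 in YFP+ arrays and 3.16 to 3.85 in wild-type arrays, against 3.79 to 3.83 in total marrow. Myh11 ranged over 4.06 to 4.20 in YFP+ arrays and 4.03 to 4.33 in wild-type arrays, against 4.04 to 4.09 in total marrow. Both stayed below the median of all values on every array, so their sorted and marrow levels could not be told from dim probes; that median is a stated limit and not a measured detection limit. The 95% interval of the change against total marrow was -0.50 to 0.59 log2 units for Cnn1 in YFP+ cells and -0.25 to 0.34 for Myh11, each also relative to a marrow signal under that median.

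Abcc9, the potassium channel subunit, was higher in all sorted groups. Its signal was 7.41, 6.76 and 5.98 in YFP+ arrays and 6.88, 6.82 and 7.35 in wild-type arrays, against 4.18 and 3.90 in total marrow. No sorted array came near total marrow, and YFP+ and wild-type arrays overlapped. The change was 2.68 ± 0.38 log2 units (SE; adjusted p = 0.00142) in YFP+ cells and 2.98 ± 0.38 (SE; adjusted p = 0.000815) in wild-type cells. The YFP− array read 6.78 after cyclic loess, 3.0 ± 0.47 log2 units above total marrow (SE; adjusted p = 0.00306). Total marrow lay under the median of all values for Abcc9, so the size of these changes rests on a dim control. The calls held under every alternative tried.

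Kcnj8 encodes the pore that pairs with the Abcc9 protein in the vascular potassium channel, and RefSeq places it next to Abcc9 on chromosome 6. Its signal was 3.74, 4.93 and 4.36 in YFP+ arrays and 3.62, 3.66 and 3.65 in wild-type arrays, against 3.60 and 3.59 in total marrow. Only YFP+ replicate 2 stood above the median of all deposited values. Kcnj8 was called against total marrow neither in YFP+ cells (0.75 ± 0.30 log2 units, SE; adjusted p = 0.104) nor in wild-type cells (0.04 ± 0.30, SE; adjusted p = 0.956). Kcnj8 was chosen for description after its values were seen.

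Rgs5, the pericyte marker that damps signalling from G protein-coupled receptors, varied more within a group than any other member. It read 4.42, 6.75 and 4.74 in YFP+ arrays and 4.87, 4.29 and 4.89 in wild-type arrays, against 3.62 and 3.71 in total marrow. All sorted arrays stood above total marrow, but YFP+ replicate 2 stood well above its fellow replicates. Its SD in YFP+ cells was 1.26, and 1.22% of all rows had a larger one there, while the median row had an SD of 0.21. Rgs5 was not called in YFP+ cells (1.64 ± 0.62 log2 units, SE; adjusted p = 0.0898), but without YFP+ replicate 2 the change was 0.92 with an adjusted p of 0.0297, and without YFP+ replicate 1 the adjusted p was 0.0394. In wild-type cells the change was 1.02 ± 0.62 log2 units (SE; adjusted p = 0.338), and it was called in 2 of 18 alternatives.

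After cyclic loess Rgs5 reached its highest reading on the YFP− array. It stood at 7.06 there, against a mean of 5.26 in YFP+, 4.63 in wild-type and 3.63 in total marrow arrays. As deposited its highest reading was 6.75, in YFP+ replicate 2, and the YFP− array read 5.86. Total marrow was under the median of all values for Rgs5, so a change against it rests on a dim control. Relative to total marrow the change on the YFP− array was 3.43 ± 0.85 log2 units (SE), with an adjusted p of 0.0224 by limma. That call rests on both marrow arrays: the adjusted p was 0.0871 without replicate 1 and 0.0751 without replicate 2. YFP− cells have a single array, so their spread was assumed to match that of the rest, and a batch of that array and its group cannot be told apart.

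Cspg4, the NG2 proteoglycan of pericytes, stayed below the median of all values on every array. It ranged over 3.44 to 3.95 in YFP+ arrays and 3.25 to 3.73 in wild-type arrays, against 3.19 to 3.24 in total marrow. The change was 0.44 ± 0.20 log2 units (SE; adjusted p = 0.140) in YFP+ and 0.25 ± 0.20 (SE; adjusted p = 0.484) in wild-type cells, and for the YFP− array it was 0.73 ± 0.26 (SE; adjusted p = 0.0776, but down to 0.0148 in the 5 alternatives that called it). With all groups this dim, the size of such changes is not resolved.

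Des, the intermediate filament of muscle and of many pericytes, gave a weak signal. It read 5.58, 4.91 and 4.26 in YFP+ arrays and 4.65, 4.85 and 4.26 in wild-type arrays, against 3.79 and 3.69 in total marrow. Sorted arrays all exceeded total marrow, and YFP+ replicate 3 and wild-type replicate 3 lay below the median of all values. The YFP+ change was 1.18 ± 0.35 log2 units (SE; adjusted p = 0.0419), and the wild-type change was 0.85 ± 0.35 (SE; adjusted p = 0.143). The YFP+ call was lost in 11 of 18 alternatives (adjusted p up to 0.174), among them leaving out YFP+ replicate 1 or 2, any wild-type array or either total marrow array. In wild-type cells Des was called in 5 of 18 alternatives, among them leaving out YFP+ replicate 1 or 3. The YFP− array read 4.27 after cyclic loess, 0.50 ± 0.50 log2 units above total marrow (SE; adjusted p = 0.526).

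**Figure D2:**
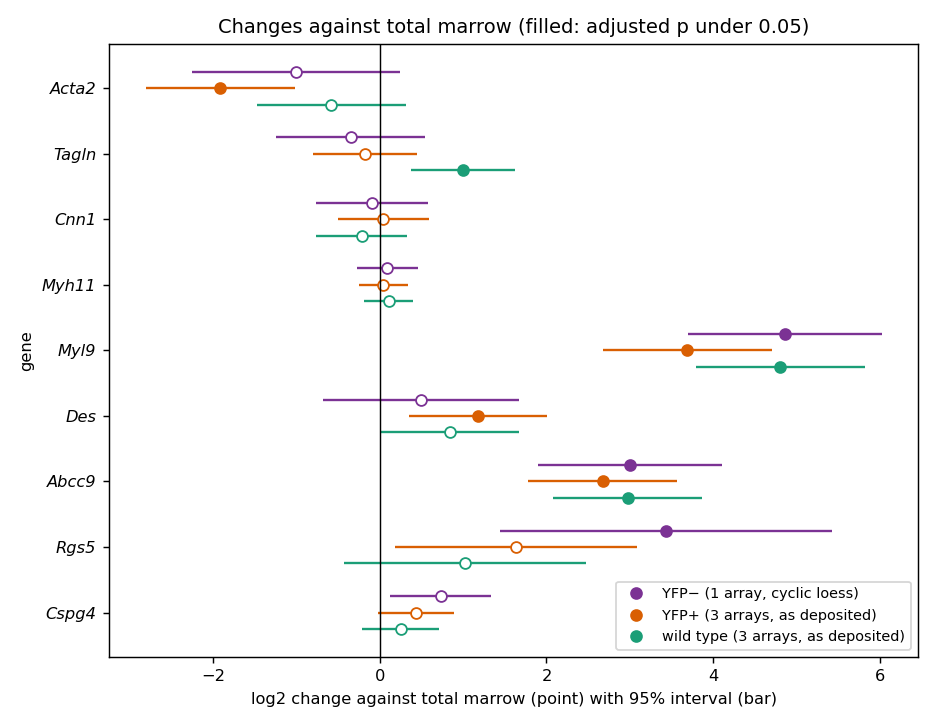
Log2 change of each gene against total marrow for YFP−, YFP+ and wild-type cells, with the 95% interval from limma as a bar; filled points have an adjusted p under 0.05. Changes are from values as deposited for YFP+ and wild type and after cyclic loess for YFP−, so they are not on one scale. Myl9 and Abcc9 are filled for all 3 groups. Acta2 lies left of 0 and is filled for YFP+ alone, and the widest intervals belong to Rgs5.

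YFP+ cells were next set against wild-type cells of the same gate. The wild-type cells came from mice without the reporter and were not split by Il7 history. Il7 history and mouse genotype therefore cannot be told apart in this comparison. By limma, 0 of the 9 genes were called, where 0% of all rows were called; 3 of the 9 genes and 3250 of all rows had an unadjusted p under 0.05. Those were Acta2, which differed by -1.33 log2 units (95% interval -2.13 to -0.53; adjusted p = 0.238), Tagln by -1.18 (-1.73 to -0.62; adjusted p = 0.164) and Myl9 by -1.12 (-2.03 to -0.21; adjusted p = 0.297). For these 3 genes each YFP+ array lay below each wild-type array; 21.8% of all rows had groups that did not overlap, and in 8.72% YFP+ was the lower group. After cyclic loess or quantile normalization the arrays overlapped for Myl9 and stayed apart for Acta2 and Tagln.

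For the other members YFP+ and wild-type arrays overlapped. Rgs5 differed by 0.62 log2 units (95% interval -0.68 to 1.92), Des by 0.33 (-0.41 to 1.07) and Abcc9 by -0.30 (-1.10 to 0.50). These intervals are wide enough to hold changes of 1 log2 unit for Rgs5, Des and Abcc9, so equality was not shown. The median change of the 9 genes was -0.06 log2 units, against 0.05 over all rows.

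Acta2 spread unequally in the YFP+ and wild-type groups. The SD of its 3 arrays was 0.06 in YFP+ cells, and 93.0% of all rows had a larger SD there. In wild-type cells the SD was 0.75, and 1.29% of rows had a larger one. The wild-type arrays that were high for Acta2 were also high for Tagln: replicates 2 and 3 had 5.83 and 6.68 for Acta2 and 5.75 and 5.72 for Tagln, against 5.17 and 4.95 in replicate 1. Across the 7 sorted arrays after cyclic loess, Pearson's r between Acta2 and Tagln was 0.80, and over all 9 arrays it was 0.51. These points share group structure and are given as a description.

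YFP− cells were also set against YFP+ and wild-type cells. By limma, 0 of the 9 genes were called in either comparison, where 3.98% of all rows were called against YFP+ and 4.56% against wild type. An unadjusted p under 0.05 was found for 0 members against YFP+ and for 2 against wild type. Of all 21789 rows, 4773 and 4865 had one in these comparisons. Rgs5 had the largest differences, 1.80 ± 0.80 log2 units against YFP+ (SE; adjusted p = 0.245) and 2.43 ± 0.80 against wild type (SE; adjusted p = 0.134). Without YFP+ replicate 2 those differences were called, at 2.52 (adjusted p = 0.0219) and 2.43 (adjusted p = 0.0208). Tagln differed from wild-type cells by -1.32 ± 0.36 log2 units (SE; adjusted p = 0.0861), and Acta2 differed by -0.43 ± 0.50 (SE; adjusted p = 0.670).

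After cyclic loess, Rgs5 and Cspg4 had their highest readings on the same arrays. The YFP− array and YFP+ replicate 2 had the highest Rgs5 (7.06 and 6.70) and the highest Cspg4 (3.97 and 3.88) of all arrays. Pearson's r between Rgs5 and Cspg4 was 0.94 over 9 arrays and 0.92 over the 7 sorted arrays, although Cspg4 spanned only 0.75 log2 units below the median. Kcnj8 was highest on the same pair of arrays, at 4.74 and 4.87. Higd1b, used as a marker of lung and brain pericytes and chosen for description after its values were seen, read 3.87 and 3.61 there and 3.27 to 3.52 on the other sorted arrays, all under the median. Of the 27 mural receptor and pericyte genes measured, these 2 alone had their highest sorted readings on that pair of arrays. The list as a whole was split, with 14 genes above the YFP+ mean on the YFP− array and 13 below it. As deposited, with its lower distribution, the YFP− array read 5.86 for Rgs5, under 6.75 in YFP+ replicate 2 and above the other arrays. It then read 3.22 for Cspg4 and 3.15 for Higd1b, the lowest of the sorted arrays. Its Kcnj8 of 3.83 lay under YFP+ replicates 2 and 3, so the shared peak on the YFP− array rests on the normalization. The endothelial markers stayed below the median on the YFP− array and on YFP+ replicate 2, as 6 of the 8 did in total marrow. A carry-over of vessel fragments was not tested.

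**Figure D3:**
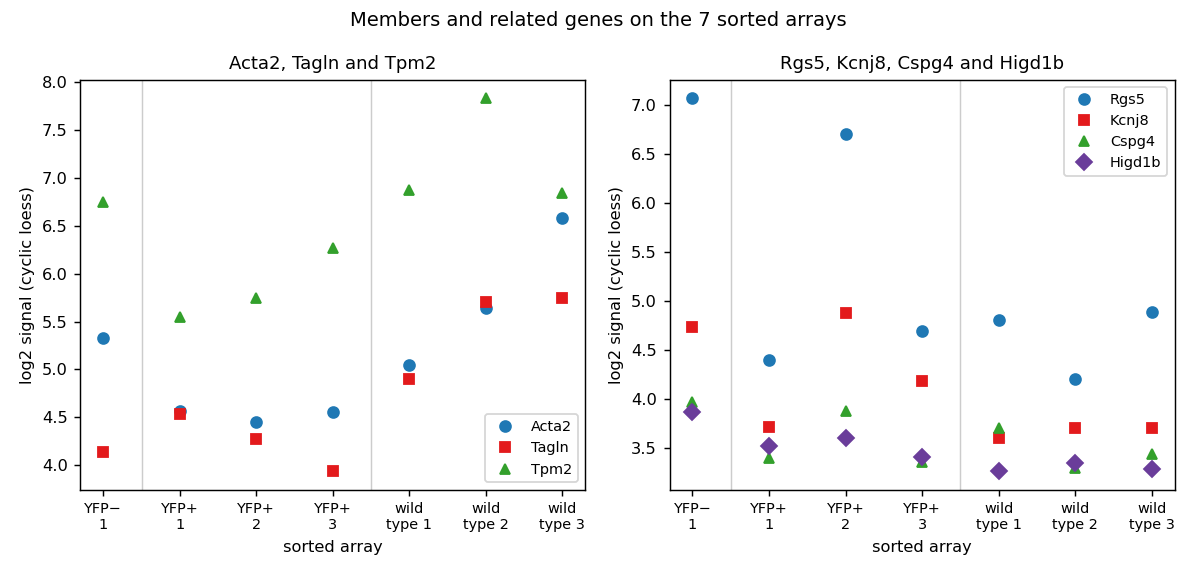
Log2 signal after cyclic loess on the 7 sorted arrays for Acta2, Tagln and Tpm2 (left) and for Rgs5, Kcnj8, Cspg4 and Higd1b (right); each point is 1 array, and points are to be compared within a gene. The left genes are higher in the wild-type arrays than in the YFP+ arrays, and the right genes peak on the YFP− array and YFP+ replicate 2. Kcnj8 and Higd1b were picked for that pattern, which the other 25 of 27 mural receptor and pericyte genes did not show. As deposited, the YFP− array was instead the lowest sorted array for Cspg4 and Higd1b. Of the 25 contractile genes, Tpm2 had the largest difference between YFP+ and wild-type cells as deposited. For 11 of these 25 genes the YFP+ and wild-type arrays did not overlap as deposited, in either direction, where 21.8% of all rows did not. Of the 25 genes, 0 were called between YFP+ and wild-type cells.

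The wider programme was read from 2 lists, one of contractile proteins and their control and one of mural receptors and pericyte genes. Of 25 contractile genes measured, 7 were called higher in YFP+ cells than in total marrow and 3 lower (11% and 18.5% of all rows). Their median change was 0.18 log2 units, against 0.09 over all rows. In wild-type cells 7 were called higher and 1 lower (10.4% and 13.9% of all rows), with a median of 0.40 against 0.00. For the YFP− array 8 were called higher and 3 lower (13% and 13.2% of all rows). No call was made for 15 of the 25 genes in YFP+ cells and for 17 in wild-type cells.

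Tropomyosin and caldesmon led the contractile list, which leaves out the 9 genes. Tropomyosin 1 (Tpm1), which lies along actin filaments, read 10.32, 10.44 and 10.37 in YFP+ arrays and 10.61, 10.98 and 10.50 in wild-type arrays, against 6.80 and 6.69 in total marrow. Its change was 3.63 ± 0.16 log2 units (SE; adjusted p = 1.84e-06) in YFP+ and 3.95 ± 0.16 (SE; adjusted p = 1.11e-06) in wild-type cells. Caldesmon (Cald1), an actin-binding regulator of myosin, was higher by 3.47 ± 0.29 log2 units in YFP+ and 4.32 ± 0.29 in wild-type cells (SE). Myosin light chain kinase (Mylk), which phosphorylates the Myl9 protein, was higher by 1.81 ± 0.18 in YFP+ cells, and smoothelin (Smtn), a smooth muscle cytoskeletal protein, by 1.53 ± 0.19 (SE). In wild-type cells Tpm2, the tropomyosin of smooth muscle, was higher by 2.49 ± 0.34 and the intermediate filament protein synemin (Synm) by 2.03 ± 0.24 (SE). Total marrow lay under the median of all values for Cald1 and Synm, so the size of their changes rests on a dim control.

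Tpm2, which had the largest difference between YFP+ and wild-type cells of the 25 contractile genes, resembled Acta2 and Tagln in its split. It read 5.66, 5.83 and 6.20 in YFP+ arrays and 7.06, 8.12 and 7.05 in wild-type arrays, against 5.06 and 4.78 in total marrow. YFP+ and wild-type arrays did not overlap, and the difference of -1.51 log2 units (95% interval -2.22 to -0.80) was not called (adjusted p = 0.161). Of the 25 contractile genes, 11 had YFP+ and wild-type arrays that did not overlap, in either direction, where 21.8% of all rows did so.

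The transcription factors behind the contractile genes were not called higher in YFP+ or wild-type cells. Srf, the factor that binds CArG boxes, read 6.13, 5.77 and 6.25 in YFP+ arrays and 6.92, 7.73 and 6.57 in wild-type arrays, against 7.51 and 7.48 in total marrow. It fell by 1.45 log2 units in YFP+ cells (SE 0.32; adjusted p = 0.0117). Its coactivator Mrtfa fell by 1.35 in YFP+ cells (SE 0.27; adjusted p = 0.0077) and by 1.11 in wild-type cells (SE 0.27; adjusted p = 0.0201). Myl6, a myosin light chain used by most cell types, fell by 1.17 in YFP+ cells (SE 0.21; adjusted p = 0.0046). Myl6 has 6 rows, of which the one with the highest mean was used; all 6 were called lower in YFP+ cells, with changes of -1.33 to -1.12. Myocd, the myocardin of smooth and cardiac muscle and also chosen after its values were seen, read 3.27 to 3.58 in YFP+ and 3.21 to 3.26 in wild-type arrays, against 3.23 to 3.24 in total marrow, all under the median.

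Most of the receptor and pericyte list was called higher. Of 27 genes measured, 16 were called higher and 1 lower in YFP+ cells (11% and 18.5% of all rows), and 15 higher and 1 lower in wild-type cells (10.4% and 13.9%). No call was made for 10 of the 27 genes in YFP+ cells and for 11 in wild-type cells. The median change over the list was 1.08 log2 units in each of these groups, against 0.09 and 0.00 over all rows. For the YFP− array 16 were called higher and 1 lower (13% and 13.2% of all rows), with a median of 1.2 log2 units against -0.00.

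PDGF receptors and a sphingosine receptor led that list. Pdgfrb, the receptor through which endothelial PDGF recruits pericytes, read 10.75, 10.58 and 10.41 in YFP+ arrays and 10.43, 10.28 and 10.61 in wild-type arrays, against 3.76 and 4.19 in total marrow. It was higher by 6.60 ± 0.18 log2 units in YFP+ cells (SE; adjusted p = 2.46e-07) and by 6.46 ± 0.18 in wild-type cells (SE; adjusted p = 2.37e-07). Total marrow lay under the median of all values for Pdgfrb and Pdgfra, so the size of their changes rests on a dim control. For S1pr3 the total marrow arrays read 4.17 and 4.67, on either side of that median. Pdgfra, the receptor typical of fibroblasts and other mesenchymal cells, was higher by 5.62 ± 0.20 and 5.53 ± 0.20 log2 units in YFP+ and wild-type cells (SE). The sphingosine 1-phosphate receptor S1pr3 was higher by 6.01 ± 0.22 and 5.95 ± 0.22 (SE), and the metalloreductase Steap4 by 5.36 ± 0.29 and 5.03 ± 0.29 (SE) in YFP+ and wild-type cells.

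Ramp1, a partner of the calcitonin receptor-like receptor, was the 1 gene of that list called lower in YFP+ and in wild-type cells. It read 4.33, 4.67 and 4.73 in YFP+ arrays and 4.79, 4.59 and 5.03 in wild-type arrays, against 8.82 and 8.45 in total marrow. It fell by 4.06 log2 units in YFP+ cells (SE 0.20) and by 3.83 in wild-type cells (SE 0.20). Anpep, the aminopeptidase CD13 found on pericytes and on myeloid cells and described here after its values were seen, was the 1 gene of either list called between sorted groups, where 2.62% of all rows were called higher against YFP+ and 3% against wild type. After cyclic loess it read 7.80 on the YFP− array, against 5.46, 4.70 and 4.80 in YFP+ arrays and 5.64, 6.06 and 6.45 in wild-type arrays, a change of 2.82 ± 0.37 log2 units against YFP+ (SE; adjusted p = 0.0156) and of 1.75 ± 0.37 against wild type (SE; adjusted p = 0.0457).

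**Figure D4:**
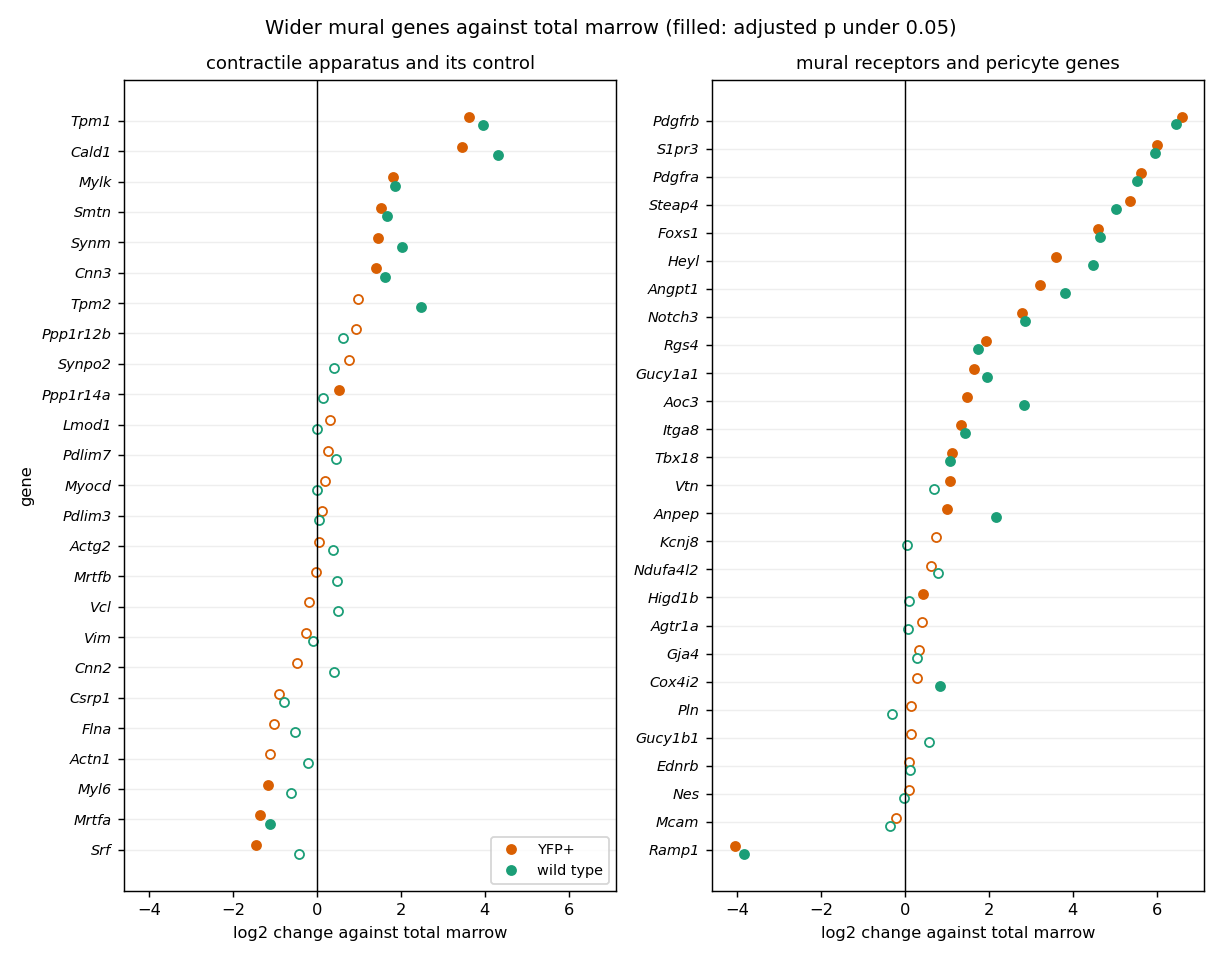
Log2 change against total marrow for 25 contractile genes (left) and 27 mural receptor and pericyte genes (right) in YFP+ and wild-type cells; filled points have an adjusted p under 0.05. The right list runs up to 6.60 for Pdgfrb with Ramp1 alone far below 0, and the left list has 7 filled points right of 0 in each group and few left of it.

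Finally, each member's pattern over the 9 arrays after cyclic loess was set against all other rows whose values spanned at least 1 log2 unit. The genes most like Myl9 were Tspan12 (Pearson's r 0.998), a tetraspanin, Adamts5 (0.997), a protease of aggrecan, and Fam20a (0.990). Those most like Abcc9 were Fads3 (0.995), Fkbp9 (0.993) and Man2b2 (0.992). With 7 sorted and 2 marrow arrays, such values mostly record the gap between sorted cells and marrow: r between Myl9 and Abcc9 was 0.96 over 9 arrays and 0.37 over the 7 sorted ones.

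The other members had closest genes of varied kinds. Rgs5 was most like Lrrc75a (r 0.966), Postn (0.958), which encodes the matrix protein periostin, and Map3k2 (0.954). Postn read 6.53 on the YFP− array, 4.08, 5.83 and 4.85 in YFP+ arrays and 4.28, 4.52 and 4.97 in wild-type arrays, against 3.56 and 3.44 in total marrow, so its highest arrays were those of Rgs5. Acta2 was most like Mrps23 (0.967), a mitochondrial ribosomal protein, Dgke (0.951) and Ago2 (0.946), and Tagln most like Ccs (0.974), Zc3h7b (0.923) and Zfp420 (0.917). Des was most like Zfp637 (0.956), Pcdhb2 (0.954) and C1qtnf2 (0.949). Cspg4 had Rgs5 as its second closest gene (0.941), after Chst5 (0.954). For Cnn1 and Myh11, which spanned 0.71 and 0.42 log2 units, the closest genes (Ivns1abp at 0.859 and Gdf5 at 0.927) follow differences among dim readings.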

How the data were processed

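The deposited log2 signals, 1 per transcript cluster and array, were made by the authors with RMA in Affymetrix Expression Console 1.3.1, per the submitters' processing notes; the genome build is not given in the sources used here. Symbols came from the platform annotation, and the 21789 rows with 1 symbol were tested. A limma fit (limma 3.58.1, R 4.3.3; lmFit, eBayes) gave each group a mean over all 9 arrays, with 5 residual degrees of freedom, two-sided tests and Benjamini-Hochberg adjustment over those rows; calls needed an adjusted p under 0.05. Intervals of 95% are not adjusted. Deposited values were used without YFP− cells, and cyclic loess values with them. Changes against a group under the median of all values (4.43 deposited, 4.53 loess) rest on a dim control, and their size is less certain. The fit was tested on simulated data. The number of arrays limits the precision. Members, lists and tests were chosen with earlier results of these data known. Named beyond the 9 members were up to 4 called genes per direction of each wider list in YFP+ and wild-type cells against total marrow, and the 3 genes most like each member by Pearson's r; Kcnj8, Higd1b, Myocd, Anpep and marker genes were named outside that rule, after their values were seen. List genes with several rows (Myl6, Ppp1r12b and Mrtfb) were read from the row with the highest mean. Replicate numbers did not pair the arrays (correlations of YFP+ with wild-type deviations were -0.06, -0.03 and -0.01). Alternatives changed the scale, the rows, the moderation, the array weights, the arrays fitted and the block.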

Additional observations from a re-analysis of the deposited data

How the results depend on the processing

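Over all alternatives that could be run, members were called in the same number within 1.5 times except as follows, and the causes were not tested. Leaving out 1 array gave 2 to 4 members called in YFP+, in wild-type and in YFP− cells against total marrow, 0 in YFP+ against wild-type cells, and 0 to 1 in YFP− against YFP+ or wild-type cells; the low count of 2 in YFP+ cells was without total marrow replicate 2 (Abcc9 and Myl9). A fit of only the groups compared called 5 in wild-type cells against total marrow. YFP− values as deposited called 7 against total marrow, 4 against YFP+ and 5 against wild type, where the median of all rows moved by -0.85, -0.91 and -0.88, and Myh11 then changed sign, to -0.81, -0.86 and -0.92. Quantile normalization and median centring each called 1 member (Tagln) in YFP− against wild-type cells. The replicate block left 4, 3, 0, 3, 0 and 0 members called in the 6 comparisons (YFP+ and wild type against total marrow, YFP+ against wild type, YFP− against total marrow, YFP+ and wild type), with Des in place of Tagln in wild-type cells, and reduced the rows called in YFP− against YFP+ cells to 5, against 867 without it, and against wild type to 6, against 994. Rows called in these YFP− comparisons also moved to 1683 and 1720 under quantile normalization, 2512 and 4458 under median centring, 16522 and 16353 as deposited, 479 and 488 without dim rows, and for wild type 2091 with array weights; they ranged over 244 to 1221 and 185 to 1722 without 1 array. Against total marrow, YFP− rows called were 8987 under median centring and 15666 as deposited, against 5719. Without a total marrow array, YFP+ rows called were 3636 or 4179, against 6422, and wild-type rows called were as few as 3398, against 5291. For YFP+ against wild-type cells, rows called were 0 to 26 without 1 array, 9 with trend and robust moderation and 1 over all rows of the file. Results under the alternatives were read for the 9 members and not for single genes of the wider lists, so the calls of Anpep carry no such check here. Each member has 1 row, so the alternative of a second row gave no value. Probes below the median of all values limit what can be said of Cnn1, Myh11 and Cspg4.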
